A study of Mus musculus with 128 samples.

Results

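Complement is a cascade of plasma proteins, most of them made by hepatocytes, and 9 of its genes were followed here in mouse liver: C1ra, C1rb, C3, C4b, C6, C8a, C8b, C9 and Cfb. They were chosen by symbol from the 35275 genes listed in the count table, all 9 were present, and all 9 were among the 16886 genes that passed the filter on low counts. The liver RNA libraries came from wild type male mice of 2 inbred strains, 65 from C57BL6/J and 63 from BALB/c, bought at 8 weeks of age and trained for 1 week to a daily feeding window. After a 21 h fast, 1 group per strain was taken at 0 h, and the others 3, 6 or 12 h after chow was given together with plain water or a 20% solution of glucose, sucrose or fructose. This gave 13 conditions in each strain and 26 groups, 24 of them with 5 libraries and 2 (BALB/c, glucose and fructose at 12 h) with 4. The labels give each library a replicate number and do not say outright that each is a separate mouse, so a p-value here measures only how libraries of a group spread. Libraries of 1 number may share variation across groups, which the main fit does not model.

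In the classical pathway, antibody or other ligands are bound by C1q, whose attached proteases C1r and C1s then cleave C4 and C2; the lectin pathway reaches the same step through mannose-binding lectins and their proteases. Both pathways, and the alternative pathway that factor B sustains, lead to cleavage of C3, the central component. Cleaved C5 then gathers C6, C7, C8 and several copies of C9 into the membrane attack complex, a pore in the target membrane. The C8 protein joins an alpha chain from C8a, a beta chain from C8b and a gamma chain from C8g. Mice carry duplicated C1r, C1s and C4 genes: C1ra and C1rb, C1s1 and C1s2, and C4b and C4a.

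C1ra and C1rb are so alike that their sequences bear on how reads were counted, and the stretch of coding sequence where they differ most is shown for that reason. Over 2118 aligned coding bases in the GENCODE M21 annotation of GRCm38, the 2 genes are 98.0% identical, with 42 differing bases. Of the 150-base windows of the C1rb coding sequence, 34.4% occur letter for letter in C1ra; 150 bases is the stated read length. Capitals mark the 13 differing bases within 120 coding bases, counted from 1 at the first coding base (1761 to 1880 in C1ra, 1758 to 1877 in C1rb).
C1ra coding: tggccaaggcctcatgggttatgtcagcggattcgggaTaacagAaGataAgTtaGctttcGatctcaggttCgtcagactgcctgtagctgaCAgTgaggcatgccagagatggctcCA
C1rb coding: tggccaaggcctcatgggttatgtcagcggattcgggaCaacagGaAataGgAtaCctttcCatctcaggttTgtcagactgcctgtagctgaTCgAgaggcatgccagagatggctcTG
Reads from such a stretch tell the copies apart, while reads from the identical windows cannot be assigned to 1 gene. The C4b and C4a pair is 96.1% identical over 5204 aligned bases, with 8.27% of the 150-base windows of C4a found in C4b, and the C1s1 and C1s2 pair is 95.7% identical with 4.14%. No coding sequence of C4a was annotated, so its longest spliced transcript (5371 bases) was set against the C4b coding sequence (5214 bases). The C4 values are therefore not measured like those of the other 2 pairs.

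The promoters of C1rb, C6, C8a and C8b are given next, with that of C1ra as the close copy of C1rb. A strain difference can thus be read beside the sequence at the gene start. The promoters run from 250 bases before to 50 after the RefSeq start, on build GRCm38.p6. Capitals mark matches, on both strands, to the motifs searched. These were the 6 letters GTTAAT, a partial site of the liver factor HNF1 that also lies within the full HNF1 site, the full HNF1 site itself, and the interferon element ISRE. The other motifs were TTGCNNAA for C/EBP and TTCNNNGAA for STAT. The TATA box was searched as TATAAA. The table of RefSeq promoters matched 7 of the 9 members; C4b and Cfb are named only.
C1ra promoter, chr6:124512371-124512670, plus strand: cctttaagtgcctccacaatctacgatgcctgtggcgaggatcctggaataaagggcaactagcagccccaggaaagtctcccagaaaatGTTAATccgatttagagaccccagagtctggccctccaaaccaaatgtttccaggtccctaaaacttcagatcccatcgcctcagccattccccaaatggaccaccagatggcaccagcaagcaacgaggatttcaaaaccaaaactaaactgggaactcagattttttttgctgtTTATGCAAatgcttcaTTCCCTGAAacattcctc
C1rb promoter, chr6:124570180-124570479, plus strand: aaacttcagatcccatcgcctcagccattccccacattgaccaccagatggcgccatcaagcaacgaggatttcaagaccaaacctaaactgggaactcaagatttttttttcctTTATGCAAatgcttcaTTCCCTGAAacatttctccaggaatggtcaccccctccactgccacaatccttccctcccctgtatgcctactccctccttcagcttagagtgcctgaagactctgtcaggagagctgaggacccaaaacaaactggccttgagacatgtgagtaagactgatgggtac
C6 promoter, chr15:4726960-4727259, plus strand: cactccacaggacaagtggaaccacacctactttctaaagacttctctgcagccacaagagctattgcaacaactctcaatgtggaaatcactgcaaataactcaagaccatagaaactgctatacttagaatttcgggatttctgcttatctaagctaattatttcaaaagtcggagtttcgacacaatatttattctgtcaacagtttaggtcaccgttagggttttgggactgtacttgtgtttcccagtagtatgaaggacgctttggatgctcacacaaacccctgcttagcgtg
C8a promoter, chr4:104876349-104876648, minus strand: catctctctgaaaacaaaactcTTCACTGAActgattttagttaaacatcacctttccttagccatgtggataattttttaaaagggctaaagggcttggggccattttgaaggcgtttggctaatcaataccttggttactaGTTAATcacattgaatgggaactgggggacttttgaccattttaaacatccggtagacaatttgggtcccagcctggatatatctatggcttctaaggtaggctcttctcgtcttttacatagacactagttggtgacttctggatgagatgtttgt
C8b promoter, chr4:104766067-104766366, plus strand: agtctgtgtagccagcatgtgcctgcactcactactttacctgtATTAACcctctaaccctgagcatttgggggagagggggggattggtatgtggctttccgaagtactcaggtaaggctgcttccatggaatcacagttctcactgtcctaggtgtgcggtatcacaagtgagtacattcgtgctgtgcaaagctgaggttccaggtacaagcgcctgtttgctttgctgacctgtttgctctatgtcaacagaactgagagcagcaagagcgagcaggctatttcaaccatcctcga
The C1ra and C1rb windows align over 148 bases with 93.9% identity, and both hold the same C/EBP and STAT letters, TTATGCAA (a match on the other strand) and TTCCCTGAA, at 17 to 24 and 33 to 41 in C1ra and at -135 to -128 and -119 to -111 in C1rb, counted from each annotated start. The C8a window holds a STAT match and a partial HNF1 site, C8b holds a partial HNF1 site on the other strand, and C6 holds none of the letters searched. Among 32851 promoters of this length, 10.8% hold the C/EBP letters, 8.30% the STAT letters, 7.10% the partial HNF1 site, 13.6% TATAAA, 3.44% the ISRE and 0.009% the full HNF1 site. The sequences are those of the reference genome, and no sequence of BALB/c was used here.

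Total counts per library ran from 18541545 to 43118895. Hepatocyte markers stood between 52429 and 141974 CPM (counts scaled to a common library size) summed over 8 genes, and Nnt, a gene partly deleted in C57BL6/J, was higher in BALB/c (133 ± 27.3 CPM, SD, n = 63, against 46.7 ± 6.73, n = 65) with no overlap in any of the 13 conditions. The library BALB/c 0 h replicate 1 stood apart with 10550 CPM of Igfbp1, a gene of the fasted liver, and 258 CPM of C4b. BALB/c water 12 h replicate 1 had 1939 CPM of Igfbp1, 23316 CPM of albumin mRNA and the lowest C9 of all libraries (35.3 CPM), and C57BL6/J 0 h replicate 2 had 160 CPM of Pck1, a gene of glucose production that stood at 2760 CPM or more in the other 0 h libraries. Kidney markers summed to 1514 CPM in BALB/c glucose 6 h replicate 3 and adrenal markers to 600 CPM in C57BL6/J water 6 h replicate 2, against medians of at most 4.17 CPM in either strain. What these libraries add to the results below was not tested except where values without them are given. In bulk tissue, fewer cells of a type and less RNA per cell cannot be told apart.

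Levels of the 9 transcripts can be set beside each other only per length, as FPKM (fragments scaled by gene length and library depth). C3 was by far the highest, with medians of 1234 FPKM in BALB/c and 1235 FPKM in C57BL6/J, and its lowest library (680 FPKM) was above the highest C4b library (611 FPKM). C4b (233 and 232 FPKM) and C8a (215 and 141 FPKM) came next, and their ranges overlapped. C9 (119 and 112 FPKM), C8b (89.1 and 109 FPKM) and C1ra (106 and 108 FPKM) formed a middle group whose ranges overlapped one another. C6 followed at 14.4 FPKM in BALB/c and 59.0 FPKM in C57BL6/J, then C1rb at 9.84 and 0.0197 FPKM, and Cfb was at 0.514 and 0.426 FPKM.

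Averaged over the 13 conditions, BALB/c liver held far more C1rb mRNA than C57BL6/J liver, 4.22-fold less C6, 1.43-fold more C8a and 1.34-fold less C8b by the ratio of means. C1ra was slightly lower, and C3, C4b, C9 and Cfb were not called different. By edgeR's quasi-likelihood test with Benjamini-Hochberg adjustment at 0.05, 5 of the 9 genes passed, 2 higher and 3 lower in BALB/c. The background is high: 55.3% of the 16886 genes tested were called, 28.7% higher and 26.5% lower, so a count of 5 in 9 is near it. Calls with a change of at least 2-fold made up 9.4% of genes tested and took in C1rb and C6. For reads of both strains the submitters name only the references mm10 and GRCm38. Whether BALB/c reads were lost where that strain's sequence differs from the reference was not tested. Lower counts in BALB/c and fewer reads placed cannot be told apart here.

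**Figure D1:**
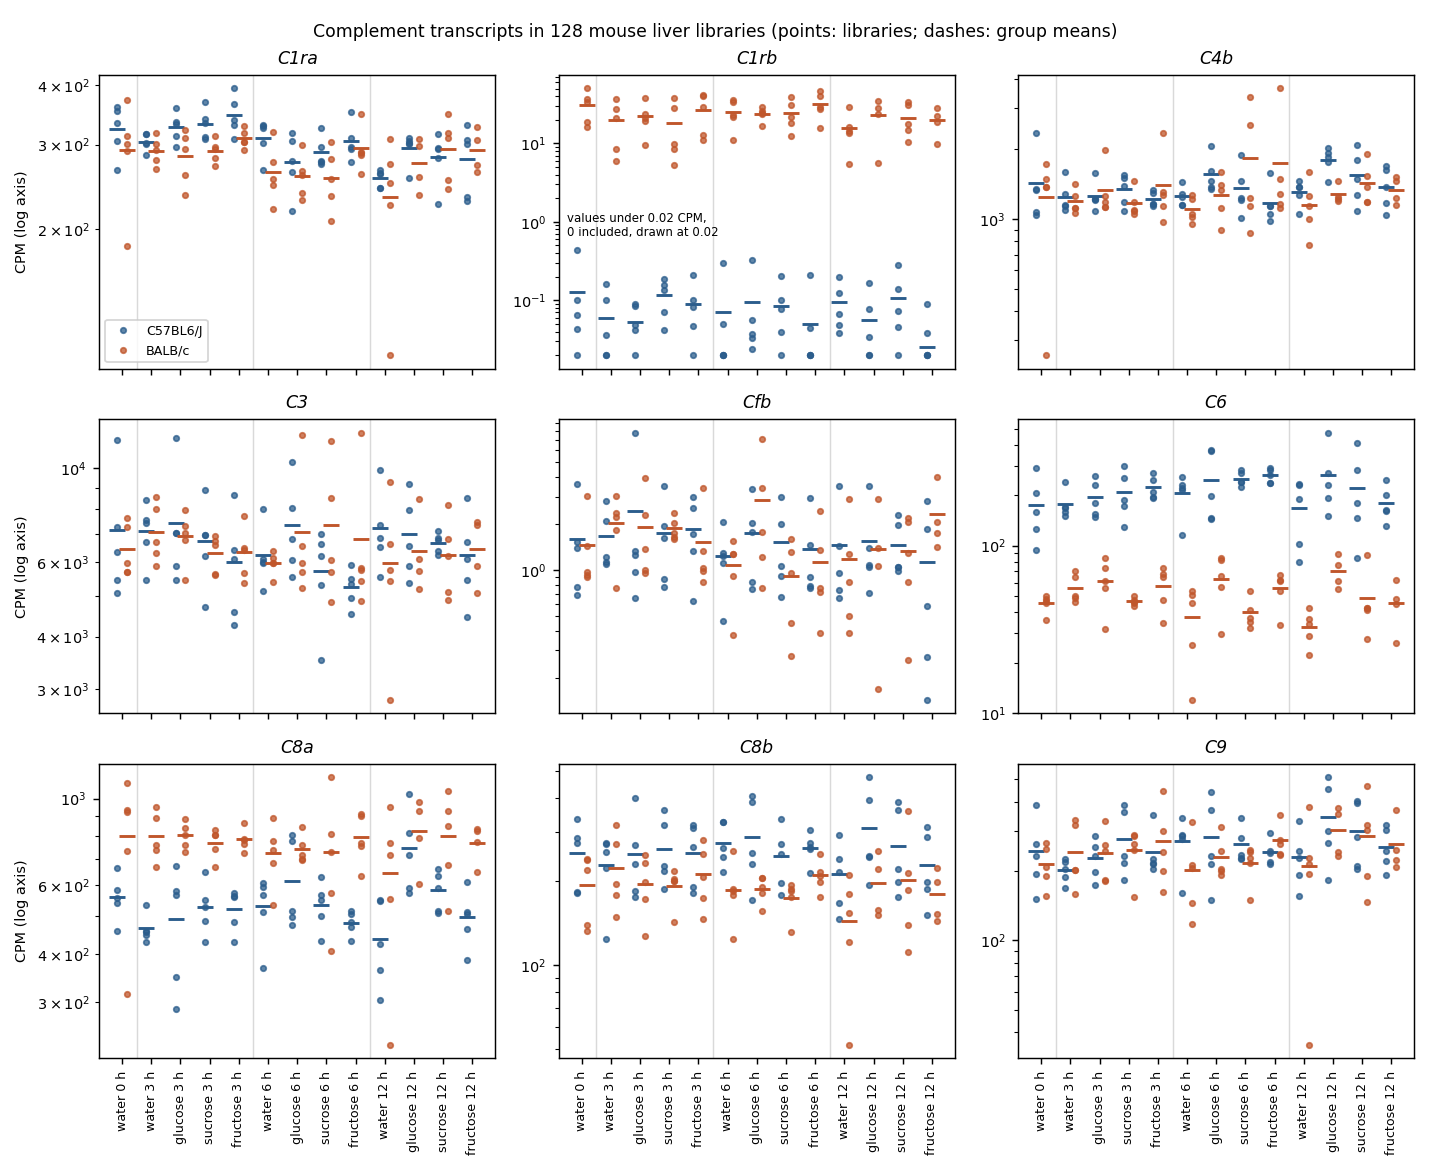
CPM of the 9 genes on log axes in all libraries, by condition, with 1 point per library and a dash for each group mean (blue, C57BL6/J; orange, BALB/c). The 63 BALB/c libraries sit above all 65 C57BL6/J libraries for C1rb, and most lie below them for C6; the strains overlap for the other genes, with a shift upward for C8a and downward for C8b.

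C1rb encodes the other C1r protease, and its transcript was close to absent from C57BL6/J liver. In BALB/c it had a lowest value of 5.35, a median of 22.9 and a highest of 51.0 CPM, and in C57BL6/J the same values were 0, 0.0489 and 0.435 CPM. Every BALB/c library was above every C57BL6/J library, as was so, in 1 direction or the other, for 1.04% of the genes tested. The 65 C57BL6/J libraries held 117 C1rb reads together, with 18 libraries holding none, and the 63 BALB/c libraries held 36098. The fitted log2 difference was 8.24 (SE 0.28, edgeR adjusted p = 2.7e-65), with means of 23.4 and 0.0795 CPM.

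At 0 h the 5 BALB/c libraries had 16.4, 36.6, 34.1, 51.0 and 18.5 CPM of C1rb, and the 5 C57BL6/J libraries 0.102, 0.0651, 0.0432, 0.435 and 0. All 5 BALB/c libraries were above the highest C57BL6/J library, and C1rb was called higher at 0 h (log2 difference 7.91, SE 0.80, edgeR adjusted p = 7.9e-19), where 16.3% of genes were called. It was called higher in 13 of 13 conditions, which was so, in either direction, for 3.65% of genes, and the strains did not overlap in any condition (1.73% of genes). The log2 difference ran from 7.19 with sucrose at 3 h to 9.38 with fructose at 6 h. As a share of the reads counted for C1ra and C1rb together, C1rb made up 1.85 to 14.9% in BALB/c (median 8.55%) and 0 to 0.125% in C57BL6/J (median 0.0165%).

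C1ra, the main C1r gene of the liver by count, had 109, 289 and 372 CPM as lowest, median and highest value in BALB/c and 218, 305 and 394 in C57BL6/J. The ranges overlap nearly throughout. BALB/c was lower by a small amount (log2 difference -0.11, SE 0.04, edgeR adjusted p = 0.0057), and in none of the 13 conditions was C1ra called, as held for 61.8% of genes. With C1ra and C1rb summed, the call was lost and the log2 difference was 0.00 (edgeR adjusted p = 0.94). It was also lost among the 40 water libraries alone (-0.15, edgeR adjusted p = 0.17).

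C4b, which encodes the C4 protein cleaved by C1s, had 258, 1226 and 3680 CPM in BALB/c and 980, 1295 and 2361 in C57BL6/J. The BALB/c range lies around the C57BL6/J range on both sides, with 3 libraries above it and 6 below. The log2 difference was -0.04 (SE 0.07, 95% interval -0.18 to 0.10, edgeR adjusted p = 0.67). Leaving out the libraries numbered 4 moved it to -0.16 (edgeR adjusted p = 0.039), and summing C4b with C4a moved it to 0.18 (edgeR adjusted p = 0.018). C4a itself, the copy known as sex-limited protein, was higher in BALB/c (296 ± 130 CPM, SD, n = 63, against 64.4 ± 46.7, n = 65, log2 difference 2.28, SE 0.13, edgeR adjusted p = 7.4e-31). It made up 4.46 to 32.2% of C4a and C4b reads in BALB/c and 0.851 to 13.3% in C57BL6/J, so the shares overlap.

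C3, the protein on which all pathways converge, had 2835, 6097 and 12146 CPM in BALB/c and 3517, 6369 and 11794 in C57BL6/J. The strains cover nearly the same range, and the log2 difference was -0.01 (SE 0.06, 95% interval -0.13 to 0.11, edgeR adjusted p = 0.91). That interval does not reach the differences of C8a or C8b. The 5 highest C3 libraries came from both strains and were not alike in other transcripts. Those of BALB/c all carry the replicate number 4. Those of C57BL6/J, glucose 3 h at 11794 CPM and water 0 h at 11679 CPM, carry the number 1. What the number marks is not stated in the labels. BALB/c fructose 6 h replicate 4 and sucrose 6 h replicate 4 paired 12146 and 11602 CPM of C3 with 3680 and 3347 CPM of C4b, 10379 and 5910 CPM of the acute phase transcript Saa1 and 26365 and 24049 CPM of haptoglobin (Hp). BALB/c glucose 6 h replicate 4 reached 11976 CPM of C3 with 17.6 CPM of Saa1, and with 7.05 CPM of Cfb, the highest of that strain.

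Cfb, which encodes factor B, was counted at low values: 0.168, 1.32 and 7.05 CPM in BALB/c and 0.143, 1.23 and 7.81 in C57BL6/J. The strains overlap over the whole range (log2 difference -0.04, SE 0.17, 95% interval -0.37 to 0.30, edgeR adjusted p = 0.88). The level itself has a limit that lies in the annotation. In GENCODE M21, 79.5% of the 2825 exonic bases of Cfb are shared with Gm20547, a gene annotated on the same strand that also shares exons with C2, and Gm20547 is listed at 0 in every library. The sources used here do not say how reads on 2 genes were counted or whether strand was used, and the Cfb and C2 values may cover only part of their reads. C2 shares 42.8% of its exonic bases with Gm20547 and was not called between the strains (26.9 and 27.4 CPM, edgeR adjusted p = 0.65).

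C6, the first of the proteins that bind C5b, had the clearest reduction in BALB/c. Its lowest, median and highest values were 12.0, 47.8 and 89.4 CPM in BALB/c and 79.8, 209 and 473 CPM in C57BL6/J. The ranges touch only at their ends: 58 of the 63 BALB/c libraries were below the lowest C57BL6/J library, and 63 of the 65 C57BL6/J libraries were above the highest BALB/c library. The means of 50.5 and 213 CPM stand 4.22-fold apart (log2 difference -2.09, SE 0.08, edgeR adjusted p = 8.7e-43).

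At 0 h the BALB/c libraries had 46.7, 48.1, 50.04, 45.1 and 36.0 CPM of C6, all below the C57BL6/J libraries at 159, 292, 205, 125 and 93.7 CPM; 7.15% of genes had no overlap at 0 h. C6 was called lower at 0 h (log2 difference -1.95, SE 0.30, edgeR adjusted p = 3.1e-07) and in 13 of 13 conditions, and the strains did not overlap in 12 of them. The exception was sucrose at 12 h, where 1 BALB/c library at 88.1 CPM passed the lowest C57BL6/J library at 84.3. Of all genes tested, 3.65% were called in all 13 conditions and 1.73% had no overlap in any. The share without overlap in 12 is not given here. Across conditions the log2 difference ran from -2.66 with sucrose at 6 h to -1.66 with glucose at 3 h.

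C8a, the alpha chain of C8, went the other way. It had 234, 771 and 1134 CPM in BALB/c and 289, 527 and 1029 in C57BL6/J, so the ranges overlap while the medians lie apart. The means of 769 and 537 CPM differ 1.43-fold (log2 difference 0.53, SE 0.06, edgeR adjusted p = 3.2e-14). The fitted difference was above 0 in 13 of 13 conditions, it was called in 5 of them, and in 6 the strains did not overlap. How many of all genes kept 1 sign in all 13 conditions, or lacked overlap in 6, is not given here. The calls were with water, glucose and fructose at 3 h and with fructose at 6 and 12 h. Genes called between the strains made up 12.9% at 3 h on water, and in the glucose, sucrose and fructose groups of that time 11.8%, 10.9% and 11.6%. At 6 h they made up 11.5%, 14.8%, 10.8% and 12.1% in the same order, and at 12 h 12.6%, 11.2%, 12.6% and 11.1%. The C8a difference was largest with water at 3 h (0.79) and smallest with glucose at 12 h (0.15).

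At 0 h C8a was not called, with BALB/c libraries at 316, 936, 922, 736 and 1094 CPM and C57BL6/J libraries at 662, 540, 557, 584 and 456 CPM. Of the BALB/c libraries 4 were above all those of C57BL6/J and 1 was below them all (log2 difference 0.52, SE 0.21, edgeR adjusted p = 0.074). The low one is replicate 1, which stood apart above. Without it the difference was 0.72 (edgeR adjusted p = 0.0079), and without all 3 libraries that stood apart it was 0.71 (edgeR adjusted p = 0.0075). Over 24 alternative fits the difference ran from 0.30 to 0.79 (adjusted p by edgeR or DESeq2 from 0.00054 to 0.47). C8a was called at 0 h only in fits that left out this low library.

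C8b, the beta chain, was lower in BALB/c although its gene lies next to C8a. It had 51.7, 191 and 358 CPM in BALB/c and 124, 250 and 473 in C57BL6/J, with most of both ranges shared. The means of 192 and 257 CPM gave a log2 difference of -0.42 (SE 0.07, edgeR adjusted p = 3.2e-07). It was below 0 in 13 of 13 conditions, from -0.65 with glucose at 12 h to -0.05 with water at 3 h. In none of them singly was it called, as held for 61.8% of genes. So the mRNAs of the 2 chains of one protein differed between the strains in opposite directions, while that of the gamma chain, C8g, was a little lower in BALB/c (387 and 435 CPM, log2 difference -0.17, edgeR adjusted p = 0.011).

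C9, whose protein lines the pore, had 35.3, 238 and 469 CPM in BALB/c and 149, 233 and 511 in C57BL6/J. The strains overlap almost throughout, and the log2 difference was -0.08 (SE 0.08, 95% interval -0.24 to 0.08, edgeR adjusted p = 0.42). The 4 BALB/c libraries below the lowest C57BL6/J value include the one at 35.3 CPM that stood apart.

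**Figure D2:**
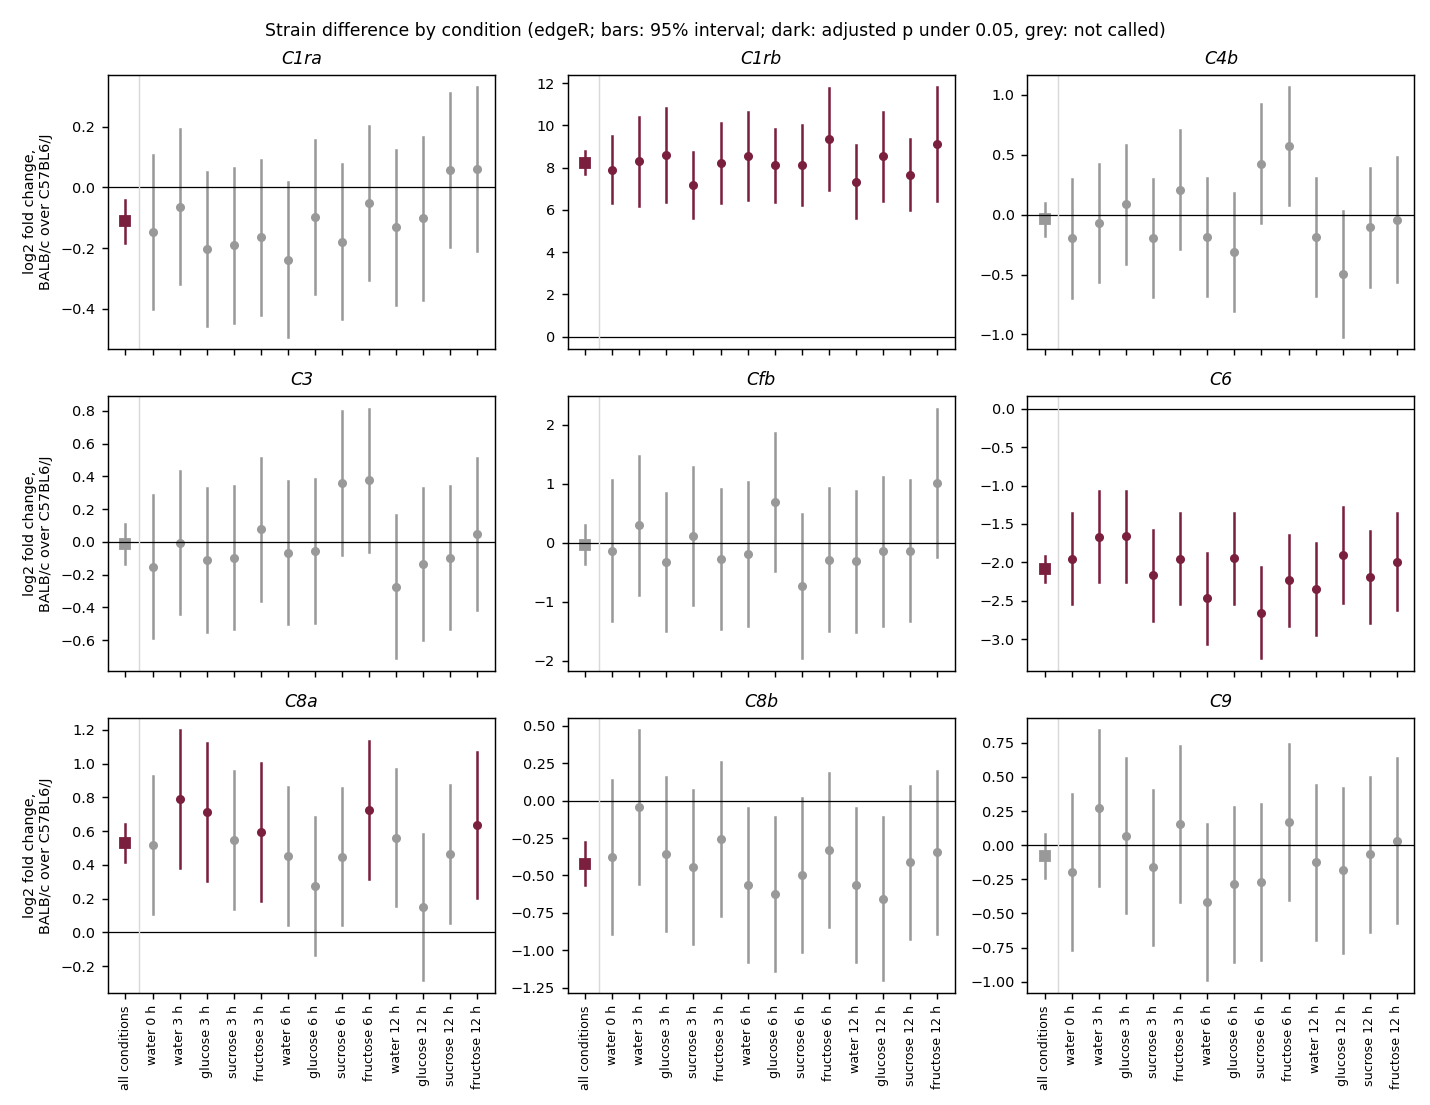
Log2 fold change of BALB/c over C57BL6/J for each gene, averaged over all conditions (square) and in each of the 13 conditions (circles), with 95% intervals from edgeR; dark marks have an adjusted p under 0.05. C1rb and C6 stay far from 0 in every condition. The circles of C8a lie above 0 and those of C8b below 0 in all 13. The interval of C8a covers 0 with glucose at 6 and 12 h, and those of C8b and the other genes cover 0 in most conditions.

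Whether the strain difference changed with feeding or drink was asked with 3 tests, none of which called a member. The test over all 13 conditions called 1.22% of genes and 0 of the 9 members by edgeR, with 0 at an unadjusted p under 0.05 and 0 by DESeq2. The test of strain against time on water (0.634% of genes called) and the test of strain against drink (0.0415%) also gave 0 members by edgeR, at an unadjusted p under 0.05 and by DESeq2. C4b had the lowest unadjusted p of the first test (0.19). Its difference ran from -0.50 with glucose at 12 h to 0.57 with fructose at 6 h, the group that holds the highest C4b library of all. Missing these thresholds does not show that the strain difference was the same in all conditions.

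After feeding on water, 1 member was called, at 1 time. No group was left unfed to 3, 6 or 12 h, so time since feeding and time of day cannot be told apart. On water, both strains averaged, the 3 h libraries differed from those at 0 h in 25.4% of genes, those at 6 h in 28.8% and those at 12 h in 17.6%, all set against the same 0 h libraries. By edgeR 0 of the 9 members were called at 3 h and 0 at 6 h, with 0 and 0 at an unadjusted p under 0.05 and 0 and 0 by DESeq2. At 12 h C1ra was called by edgeR and by DESeq2, and 2 members (C1ra and C8a) had an unadjusted p under 0.05. The share of all genes at that unadjusted threshold is not given here. C8a had a log2 change of -0.33 (SE 0.15, edgeR adjusted p = 0.11). C1ra stood in the C57BL6/J libraries at 306, 333, 360, 353 and 265 CPM at 0 h and 244, 262, 243, 266 and 260 CPM at 12 h. Its BALB/c libraries had 184, 300, 313, 290 and 372 CPM at 0 h and 109, 274, 309, 224 and 249 CPM at 12 h. In C57BL6/J only 1 value at 0 h falls within the 12 h range, and in BALB/c the times overlap. The log2 change of C1ra was -0.33 (SE 0.09, edgeR adjusted p = 0.0044). It fell by 0.34 in C57BL6/J and 0.33 in BALB/c, and in neither strain alone was it called (edgeR adjusted p = 0.090 and 0.093, with 7.67% and 9.97% of genes called). With libraries of the name suffix a left out the change was -0.33 (edgeR adjusted p = 0.053).

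Sugar in the drink called no member at any time. Over the 3 sugars against water, 3.94% of genes were called after 3 h of feeding, 2.72% after 6 h and 0.172% after 12 h, and by edgeR 0 of the 9 members were called at each. At an unadjusted p under 0.05 there were 0 members at 3 h, 2 at 6 h (C4b and C6) and 5 at 12 h (C1ra, C6, C8a, C8b and C9), and DESeq2 called 0, 0 and 0. The share of all genes at that unadjusted threshold is not given here, so these counts have no background. Several of the 5 varied together within groups (correlation 0.88 for C8b and C9, 0.69 for C1ra and C9). They are thus not 5 separate observations. At 12 h the 5 were all higher with sugar than with water: C6 had a log2 difference of 0.55 (SE 0.17, edgeR adjusted p = 0.32), C9 of 0.40, C8a of 0.38, C8b of 0.38 and C1ra of 0.23. The water groups at 12 h include the BALB/c library that stood apart with low values. Glucose alone at 12 h came nearest to a call for C6 (log2 difference 0.89, SE 0.22, edgeR adjusted p = 0.073), where 0.0651% of genes were called. The 4 BALB/c libraries with glucose had 54.7 to 89.4 CPM against 22.2 to 42.4 with water, without overlap, and the C57BL6/J libraries had 150 to 473 against 79.8 to 233, with overlap. C6 was picked here as the member nearest to a call. The share of all genes without overlap between these BALB/c groups is not given here.

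The wider complement system was read from a list of 42 further genes, all of them tested. In BALB/c 8 were higher and 19 lower over all conditions, with a median log2 difference of -0.09 against 0.01 over all genes tested, so that 27 were called, beside the 55.3% of all genes. By role and with the members included, 5 of 18 genes that start the classical and lectin pathways were higher and 5 lower. Of the 4 genes of C3 and the alternative pathway 0 were higher and 2 lower, of the 7 terminal genes 1 was higher and 4 lower, of the 14 regulators 2 and 6, and of the 8 receptors 2 and 5.

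**Figure D3:**
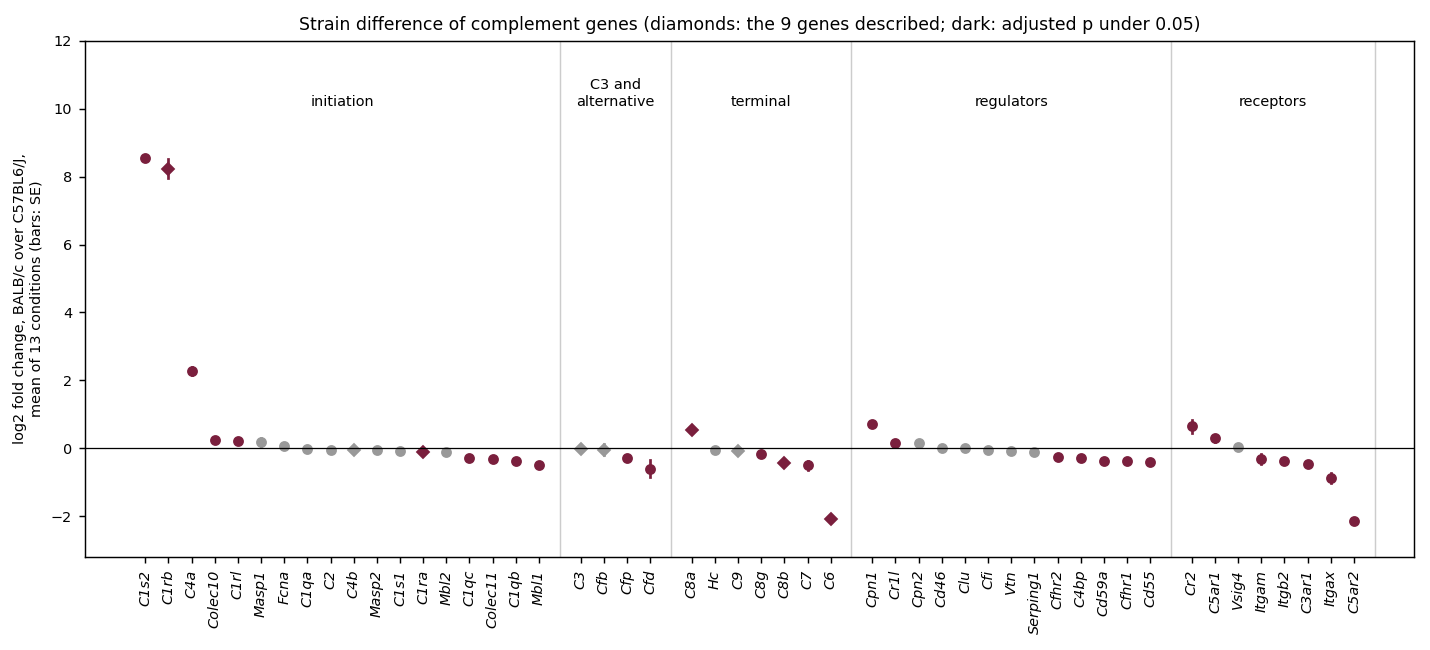
Log2 fold change of BALB/c over C57BL6/J, averaged over conditions, for complement genes by role, with 1 regulator not shown (bars, SE, not estimated for C1s2; diamonds, the 9 genes followed here; dark, edgeR adjusted p under 0.05). C1s2 and C1rb stand near 8, C4a at 2.28, C6 and C5ar2 near -2, and nearly all others lie between -1 and 1.

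C1s2, the copy of the protease that C1r cleaves, shared the pattern of C1rb: 8.51 ± 4.21 CPM in BALB/c (SD, n = 63) and 35 reads in all 65 C57BL6/J libraries, 44 of which had none (edgeR adjusted p = 2.2e-64). Its main copy C1s1 was not called (309 and 328 CPM, edgeR adjusted p = 0.19). C1rl, a C1r-like protease gene, was slightly higher in BALB/c (log2 difference 0.23, edgeR adjusted p = 9.7e-06). C5ar2, a receptor of C5a, was lower in BALB/c in 13 of 13 conditions (0.569 ± 0.252 against 2.54 ± 0.621 CPM, SD, n = 63 and 65, log2 difference -2.14, edgeR adjusted p = 7.9e-42). Cpn1, a subunit of the carboxypeptidase that inactivates C3a and C5a, was higher in 13 of 13 (364 ± 50.7 against 219 ± 29.5 CPM, SD, n = 63 and 65, log2 difference 0.73, edgeR adjusted p = 2.4e-36).

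Mannose-binding lectin Mbl1 (log2 difference -0.50), the collectin Colec11 (-0.32) and the inhibitor of cell-bound convertase Cd55 (-0.41) were lower in BALB/c, with edgeR adjusted p of 2.1e-11 or less. Of the other terminal genes, C7 was lower at under 1 CPM (-0.50, edgeR adjusted p = 0.00088) and C5, listed as Hc, was not called (822 and 841 CPM, edgeR adjusted p = 0.58). Several receptors and C1q are known from macrophages and other leukocytes. Beside them, 4 of 9 Kupffer cell and macrophage markers were lower and 0 higher in BALB/c, where 26.5% of all genes were lower and 28.7% higher, with summed levels of 102 to 398 CPM against 113 to 659 CPM in C57BL6/J and no defining marker at 0. Of 7 T and NK cell markers 4 were lower and 0 higher (0.956 to 4.91 CPM against 0.166 to 15.4 CPM, summed). Of 6 B cell markers 3 were higher and 0 lower (10.4 to 57.3 CPM against 2.78 to 59.4 CPM), and of 3 neutrophil markers tested 2 were higher and 0 lower (0.926 to 22.5 CPM against 0 to 45.9 CPM, over all 5 listed). The part of these cells in the complement values was not tested.

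The 3 lists of acute phase, interferon response and regulator genes were read beside the 28.7% of all genes called higher and the 26.5% called lower. Of 22 acute phase transcripts 6 were higher and 7 lower in BALB/c (median -0.05); by mean level the leading 3 were Hp (log2 difference 0.38, edgeR adjusted p = 2.0e-05), Hpx (0.00) and Fgb (-0.02), the last 2 not called. Of 18 interferon response genes 1 was higher and 11 lower (median -0.38 against 0.01 over all genes), most calls thus being lower in BALB/c, with Stat2 and Irf9 not called and Irf7 at -0.56. Of 14 genes listed as IL-6, STAT3, NF-kB and C/EBP regulators 2 were higher and 5 lower (median -0.09). The leading 3 by mean level were Hnf4a (-0.25), Cebpa (-0.19) and Nr1h4 (-0.69). Hnf4a and Nr1h4 encode nuclear receptors of hepatocytes, so this list does not hold genes of inflammatory signalling alone. The part of the listed genes in the members' levels was not tested.

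The neighbouring genes were read beside the 55.3% of all genes called, and a count of called neighbours near that share is not a result about the members. C1rb lies at chr6:124570294-124581171 (GRCm38, as listed by the authors) between C1s1 and C1s2, within a cluster of C1rl, C1ra, C1s1, C1rb and C1s2. C1ra starts 57.7 kb before C1rb and C1s2 starts 54.3 kb after it. C1rb and C1s2 differ by over 8 on the log2 scale, while C1s1 between C1ra and C1rb, and Lpcat3 and Emg1 beyond C1s2, were not called. On the other side of C1ra, Clstn3 was lower in BALB/c (4.25 and 12.4 CPM, log2 difference -1.59, edgeR adjusted p = 6.7e-29) and Pex5 slightly so (-0.22). Of 31 genes tested within 500 kb of the start of C1rb, 13 were higher and 8 lower.

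C6 lies at chr15:4727175-4815456. C7 starts 262 kb after it, and of the 8 genes tested within 500 kb, C6 included, 4 were lower and 0 higher. The other 3 of these, C7, Gm10250 and Rpl37, had differences of -0.50, -0.33 and -0.14. No gene tested within 500 kb lies on the lower-coordinate side of C6. The 3 nearest tested there, Oxct1, AW549877 and Fbxo4, start 701 to 762 kb away. They were called higher in BALB/c, with differences of 0.23, 0.12 and 0.27. C8a (chr4:104815679-104876398, minus strand) and C8b (chr4:104766317-104804548, plus strand) have lower coordinates 49.4 kb apart. The nearest tested genes above C8a, Gm17662, 1700024P16Rik and Prkaa2, were not called, and the nearest below C8b, Dab1, was higher in BALB/c (2.41 and 0.229 CPM, log2 difference 3.41) at 1147 kb. C4b (chr17:34728380-34743882), Cfb (chr17:34856374-34862518) and C2 lie in the major histocompatibility region, where 17 of 58 genes tested around C4b were higher and 14 lower. C3 lies on chr17:57203970-57228136, C9 on chr15:6445327-6498751 and C1ra on chr6:124512632-124523440, and of their 6 nearest tested neighbours each, 4, 2 and 5 were called.

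**Figure D4:**
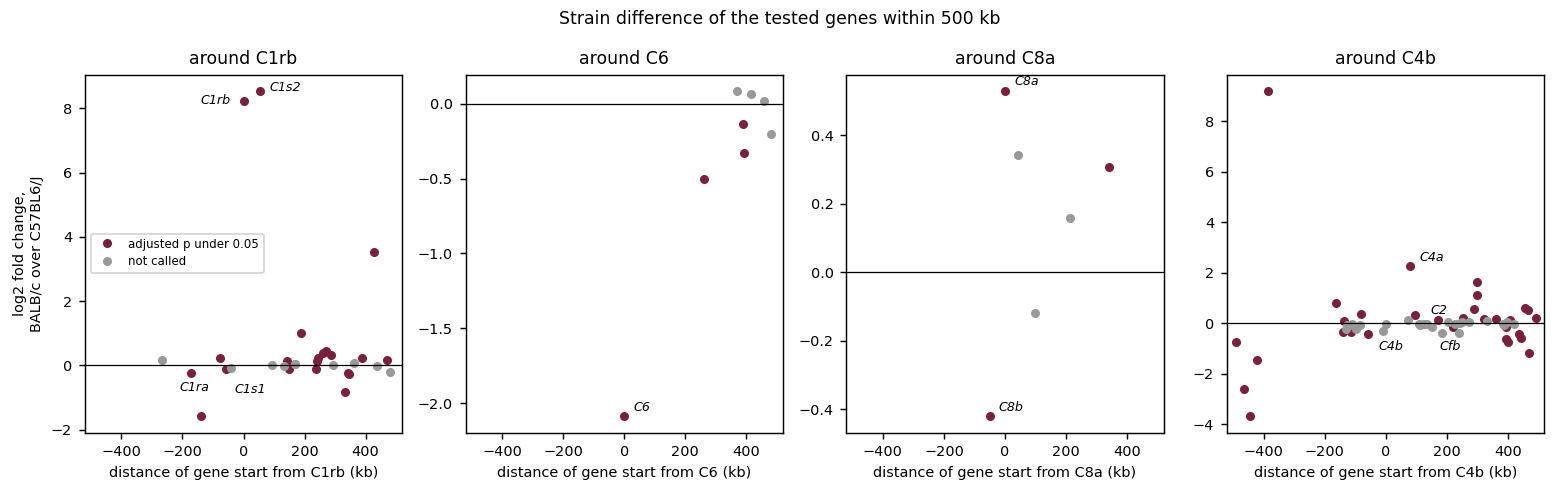
Log2 fold change of BALB/c over C57BL6/J for all genes tested within 500 kb of the starts of C1rb, C6, C8a and C4b, by distance in kb (dark, edgeR adjusted p under 0.05). C1rb and C1s2 stand alone near 8 in the first panel, C6 alone near -2 in the second, and C8a and C8b lie on either side of 0 in the third.

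Within groups, several members varied together from library to library, among them C1ra and the terminal genes. After taking the group mean from each library's log2 CPM, C8b and C9 had a correlation of 0.88 over the 65 C57BL6/J and 63 BALB/c libraries, C8a and C9 of 0.72, C8a and C8b of 0.63, and C6 with C8b of 0.58. C1ra, of the classical pathway, had values of 0.69 with C9, 0.66 with C8a and 0.62 with C8b, so such values were not limited to the terminal genes. C8b was the gene most like C9 among all genes of at least 5 CPM, and C9 the gene most like C8b and C8a. C3 had a correlation of 0.51 with C9, 0.50 with C8b, 0.46 with Cfb and 0.39 with C4b; C6 and C8a had one of 0.42, and C1ra and C1rb of 0.03. These values describe the libraries, share depth, scaling, tissue sampling and any variation common to a replicate number, and carry no test.

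**Figure D5:**
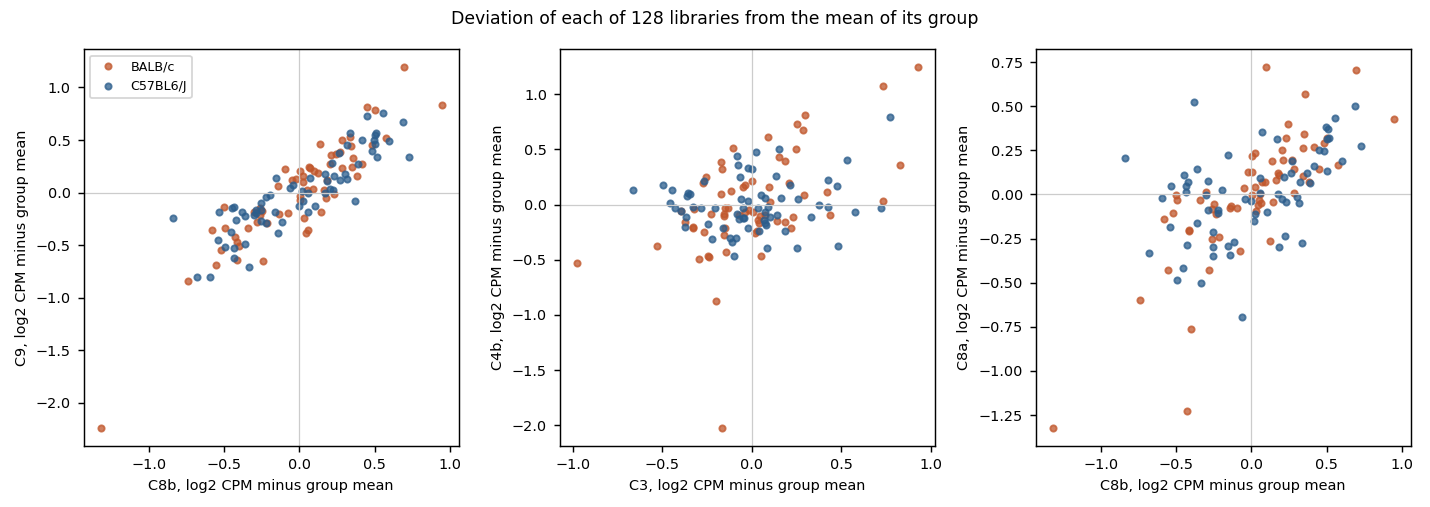
Deviation of each library from its group mean on the log2 CPM scale, for C9 against C8b, C4b against C3 and C8a against C8b (blue, C57BL6/J; orange, BALB/c). The points for C8b and C9 follow a line in both strains (correlation 0.88), with BALB/c water 12 h replicate 1 at the lower end; those for C3 and C4b spread more widely (0.39).

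Outside complement, the gene most like C3 was Itih4 (0.85), then Fga (0.80), both plasma proteins of the liver's acute phase. C4b was most like Tmem176a (0.82) and Saa4 (0.75), C1ra like Adi1 (0.78) and Itm2b (0.75), C6 like Cyp7b1 (0.64) and Selenbp2 (0.62), and C1rb like Cib1 (0.63) and Fxyd1 (0.63). Cfb was most like Eif4ebp2 (0.81) and Arhgef12 (0.80), the second gene after C9 was Crot (0.72) for C8a and Scp2 (0.85) for C8b, and Cfi (0.80) came second for C9.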

How the data were processed

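Whole-number read counts per gene were deposited by the authors, with FPKM values beside them. Per the submitters' processing notes, CASAVA, STAR 2.5, HTSeq 0.6.1 and DESeq2 were used with mm10 and GRCm38; their roles, strand setting and treatment of reads on close copies are not given in the sources used here. FPKM, as the authors deposited it, served only to set genes beside each other. CPM were computed from the counts with TMM library sizes. The 35275 genes were filtered with filterByExpr, and 16886 were fitted in edgeR 4.0.16 (R 4.3.3, limma 3.58.1) with robust quasi-likelihood and 1 mean for each of the 26 groups over all 128 libraries. P-values were adjusted by Benjamini-Hochberg over all genes tested, with a threshold of 0.05. Strain differences are BALB/c minus C57BL6/J, the 13 conditions weighted equally.

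Total counts ran from 18541545 to 43118895 (median 24131379). No 2 libraries held identical counts. On simulated counts for 16570 genes, the strain test over all conditions recovered 84% of 1.5-fold and 100% of 3-fold changes, and the test at 0 h 23% and 78%. These counts were drawn independently from 1 profile, with the same strain change in all 13 conditions. They held no effect of drink, time or replicate number, so the rates describe that simpler setting.

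The members and gene lists were chosen with earlier results of these data known. Named beside the 9 members were their close copies and partners, the 6 further complement genes of smallest p with a mean of at least 1 CPM (1 of them is not reported here), the 2 genes of at least 5 CPM most like each member, called neighbours among the 3 nearest tested on each side, the 3 most abundant genes of the other lists, and Nnt. Gm10250 and the libraries with high C3 were singled out after their values were seen. Alternatives were DESeq2 1.42.0, RLE factors, no filter, a replicate block, the name suffix as covariate, the 94 libraries without it, summed copies, fewer libraries and leaving out replicates. The suffix a, on 34 library names, is not explained in the labels.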

Additional observations from a re-analysis of the deposited data

Results flagged for a closer look

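Among the 234 sets of 1 member in 1 group of 4 or 5 libraries, 26 (11.1%) held a library far from the others by Dixon's criterion. The criterion flags about 5% of sets where values are independent and normal. It was used on CPM without logs, where skew and low counts alone can raise that share, so 11.1% does not show an excess. All values are CPM, with the range of the other libraries of the group after each.

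C1ra had 1 such library. C57BL6/J glucose 12 h replicate 1 was low at 255.3 (300.4 to 310 in the others). C1rb had 4, all in C57BL6/J, where a library holds at most 9 reads of it. C57BL6/J water 0 h replicate 4 was high at 0.4349 (0 to 0.1019 in the others). C57BL6/J water 6 h replicate 3 was high at 0.2995 (0 to 0.05047 in the others). C57BL6/J glucose 6 h replicate 4 was high at 0.328 (0.02364 to 0.05546 in the others). C57BL6/J fructose 6 h replicate 3 was high at 0.2082 (0 to 0.04396 in the others).

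C4b had 6, of which 4 carry the replicate number 4. C57BL6/J water 0 h replicate 1 was high at 2361 (1037 to 1346 in the others). BALB/c water 0 h replicate 1 was low at 258.4 (1370 to 1735 in the others). BALB/c glucose 3 h replicate 4 was high at 1993 (1124 to 1260 in the others). BALB/c fructose 3 h replicate 4 was high at 2354 (967.2 to 1311 in the others). C57BL6/J fructose 6 h replicate 4 was high at 1573 (979.8 to 1135 in the others). BALB/c fructose 6 h replicate 4 was high at 3680 (1116 to 1495 in the others). C3 had 3. C57BL6/J glucose 3 h replicate 1 was high at 11790 (5449 to 7047 in the others). BALB/c glucose 6 h replicate 4 was high at 11980 (5201 to 6564 in the others). BALB/c fructose 6 h replicate 4 was high at 12150 (4868 to 5796 in the others).

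Cfb had 6, all high and at low counts. C57BL6/J water 0 h replicate 1 was high at 3.617 (0.6849 to 1.53 in the others). BALB/c water 0 h replicate 5 was high at 3.028 (0.9049 to 1.433 in the others). C57BL6/J glucose 3 h replicate 1 was high at 7.806 (0.661 to 1.322 in the others). BALB/c fructose 3 h replicate 1 was high at 3.396 (0.8385 to 1.322 in the others). C57BL6/J water 12 h replicate 2 was high at 3.53 (0.6614 to 1.424 in the others). C57BL6/J glucose 12 h replicate 2 was high at 3.487 (0.7073 to 1.394 in the others). C6 had 2. C57BL6/J water 3 h replicate 2 was high at 240.2 (150.7 to 168.8 in the others). BALB/c sucrose 12 h replicate 2 was high at 88.07 (27.73 to 42.37 in the others).

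C8a had 1. C57BL6/J water 3 h replicate 4 was high at 534.3 (428.2 to 457.9 in the others). C8b had 2, both low. BALB/c sucrose 3 h replicate 1 was low at 143.3 (199.9 to 217.5 in the others). BALB/c sucrose 6 h replicate 1 was low at 131.2 (175.7 to 193.7 in the others). C9 had 1. C57BL6/J fructose 3 h replicate 5 was high at 351.5 (203.9 to 225.1 in the others).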

How the results depend on the processing

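Of 1384 values of the members under the alternatives, 1375 kept their direction and side of the threshold or were uncalled in both fits, 5 became called, 2 lost their call and 2 reversed; 71 uncalled values changed sign. Both reversals came from summing close copies: C1ra with C1rb gave 0.0039 on the log2 scale and C4b with C4a 0.18. Over all conditions C1rb stayed between 8.02 and 8.55, C6 between -2.13 and -1.92, C8a between 0.49 and 0.57 and C8b between -0.47 and -0.32. Without the libraries numbered 1, which include the BALB/c 0 h library that stood apart, C8a was called at 0 h (0.79, edgeR adjusted p = 0.00054).

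Counts of calls over all genes moved as follows; the cause was not tested except where fewer libraries were fitted. DESeq2 called 372 genes for the strain difference between conditions (206 by edgeR), 192 for strain by time on water (107), 19 for strain by drink (7) and 71 for sugar at 12 h (29). The name suffix as a covariate gave 190 for strain by time. The 94 libraries without the suffix gave 20, 11 and 0 for these 3 strain tests and 195, 126 and 1 for sugar at 3, 6 and 12 h (665, 459 and 29). With copies summed, which leaves out C1rb and its 13 calls, 19 member calls were made in single conditions (31). Fits of the 10 libraries at 0 h called 817 genes (2753), and of the 40 water libraries 5065 (9331). Without the 3 libraries that stood apart, chosen after seeing the data, strain by time gave 63 and sugar at 12 h 9. Leaving out each replicate number in turn gave 8395 to 8814 for strain over all conditions, 1805 to 2939 for strain at 0 h (single libraries at 0 h included), 28 to 36 member calls in single conditions, 59 to 148 for the difference between conditions, 7 to 98 for strain by time, 0 to 7 for strain by drink, 1918 to 2868 for water 12 h against 0 h, and 298 to 563, 122 to 343 and 1 to 22 for any sugar against water at 3 h, any sugar against water at 6 h and any sugar against water at 12 h.

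The labels do not say what a replicate number marks, and it was not taken to pair the strains because not every pair correlated: over 63 pairs the correlation of deviations ran from -0.327 to 0.433 (median 0.122), with 35 over 0.1. Pairs that do not correlate cannot exclude a batch shared by libraries of 1 number. In the data, 29 of 63 BALB/c libraries correlated best with their own number. Libraries of 1 number may thus share variation that the main fit does not model. With the number as a replicate block, 9659 genes were called for strain over all conditions and 3048 for strain at 0 h, and 33 member calls were made in single conditions. The block gave 217, 119 and 5 for the 3 strain tests, 4633, 5202 and 3280 for water 3 h against 0 h, water 6 h against 0 h and water 12 h against 0 h, and 844, 653 and 28 for any sugar against water at 3 h, any sugar against water at 6 h and any sugar against water at 12 h. C8a on water at 12 h became called with the block (-0.35, edgeR adjusted p = 0.045). Depth limits C1rb and C1s2 in C57BL6/J, and Cfb, to few reads per library.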
